A study of Mus musculus with 9 samples.

Results

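The SR splicing factors Srsf1, Srsf2, Srsf3, Srsf5, Srsf6 and Srsf7, the SR-like factors Tra2a and Tra2b, and the kinases Clk1 and Clk4 were examined as 10 genes named by symbol, out of 29756 entries in the deposited expression table. All 10 passed the filter on low values, which kept 11974 entries (at least 1 FPKM in at least 3 libraries). FPKM is fragments scaled to gene length and to library size, so levels can be compared between genes. The libraries came from HT22, an immortalised mouse hippocampal neuronal line, and were labelled experimental (3 libraries), intervention (3) or control (3). Hemin, which is heme with its iron oxidised, and PPP8, a micelle used as a therapy, stand in the title of the series. Which cultures received which agent, at what dose or for how long, is not in the labels, so the groups keep their label names. All 9 libraries come from 1 cell line, and nothing in the labels says that replicates were separate cultures. The p-values therefore measure the spread between these libraries only, which may be technical.

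SR proteins bind short exonic sequences through RNA recognition motifs and use an arginine- and serine-rich domain to recruit the spliceosome, so they help to decide which exons are kept in an mRNA. Kinases of the CLK family phosphorylate that domain in the nucleus, which releases SR proteins from nuclear speckles to sites of splicing. Many genes of this family control their own level: they carry a poison exon or a retained intron, and inclusion of that segment sends the transcript to nonsense-mediated decay or keeps it in the nucleus. Clk1 transcripts with retained introns are held in the nucleus and can be spliced when cells are stressed.

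Summed FPKM was 332864 to 338823 in experimental, 336987 to 339943 in intervention and 316912 to 327127 in control libraries, so every control sum was the lower. The number of entries at 1 FPKM or more was 11154 to 11267 in experimental, 11308 to 11394 in intervention and 11646 to 11732 in control libraries. Of 14 neuronal markers, Tubb3 and Syn1 reached 1 FPKM in every library, while Rbfox3, Map2 and Dcx, which define mature or migrating neurons, stayed at or below 0.16, 0.22 and 0.02 FPKM. The 14 neuronal markers together held 14.1 to 14.55 FPKM in the experimental libraries, 10.31 to 13.14 in the intervention libraries and 14.67 to 20.46 in the controls. These sums merge different patterns: Tubb3 averaged 8.41, 6.89 and 7.12 FPKM in the 3 groups, and Syn1 3.02, 2.83 and 6.01. Intervention replicate 3 held 0.2 FPKM of Camk2a, against 1.04 and 0.76 in replicates 1 and 2, while its Tubb3 was 7.43, against 5.88 and 7.37. The 5 astrocyte markers summed to 2.56 to 2.91, 2.32 to 3.76 and 5.79 to 6.74 FPKM in the experimental, intervention and control libraries, and Slc1a3 was the only one at 1 FPKM or more in every library. None of 6 microglia and blood markers or of 5 oligodendrocyte and endothelial markers was tested, with summed levels of at most 2.43 and 1.75 FPKM. The nuclear RNAs Malat1 and Neat1 together held 82.05 to 105.66, 75.27 to 91.81 and 114.78 to 201.71 FPKM in the experimental, intervention and control libraries. The part of these transcripts in the results below was not tested, and in bulk RNA fewer cells of a type and less RNA per cell cannot be told apart.

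Promoter sequences are shown for 4 of the 10 genes, Tra2b, Srsf7, Srsf2 and Srsf5. Tra2b was the only one of the 10 called between the intervention and experimental groups. Srsf7 and Srsf2 mRNAs were higher in both groups than in controls, and Srsf5 mRNA was lower in both. Srsf1 and Tra2a mRNAs were also higher in both groups, and their windows are not shown. The Srsf1 window held none of the motifs capitalised below. Each line gives the 250 bases before the annotated transcription start, 5′ to 3′ on the strand of the gene, from RefSeq on GRCm38.p6. The windows are chr16:22266006-22266255 on the minus strand for Tra2b, chr17:80207306-80207555 on the minus strand for Srsf7, chr11:116853095-116853344 on the minus strand for Srsf2 and chr12:80945249-80945498 on the plus strand for Srsf5. Capitals mark matches on either strand to GAANNTTC (a heat shock element pair), TGACNNNGC (the core of an antioxidant response element), CCAAT (the box bound by NF-Y), CCGGAAG (an ETS factor site), TATAAA (the core promoter box bound by TBP), TGATGNAA (a composite site of ATF4 with C/EBP) and TGACGTCA (a cyclic AMP response element), of which the last and TGATGNAA have no match in these 4 windows.
Tra2b: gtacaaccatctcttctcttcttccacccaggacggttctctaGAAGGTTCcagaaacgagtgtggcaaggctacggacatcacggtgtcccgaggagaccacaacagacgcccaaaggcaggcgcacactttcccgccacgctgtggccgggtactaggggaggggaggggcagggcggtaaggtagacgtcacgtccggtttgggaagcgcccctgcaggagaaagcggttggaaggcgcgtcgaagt
Srsf7: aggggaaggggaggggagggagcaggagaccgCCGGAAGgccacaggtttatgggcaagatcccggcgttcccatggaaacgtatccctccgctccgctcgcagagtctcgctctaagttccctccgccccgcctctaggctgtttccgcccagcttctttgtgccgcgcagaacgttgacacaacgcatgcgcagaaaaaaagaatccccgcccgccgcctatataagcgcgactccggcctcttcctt
Srsf2: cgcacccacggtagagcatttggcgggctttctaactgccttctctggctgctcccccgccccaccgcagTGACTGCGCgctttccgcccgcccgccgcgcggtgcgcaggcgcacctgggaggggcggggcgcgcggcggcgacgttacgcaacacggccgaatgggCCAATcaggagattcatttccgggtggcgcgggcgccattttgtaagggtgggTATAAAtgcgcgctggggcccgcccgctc
Srsf5: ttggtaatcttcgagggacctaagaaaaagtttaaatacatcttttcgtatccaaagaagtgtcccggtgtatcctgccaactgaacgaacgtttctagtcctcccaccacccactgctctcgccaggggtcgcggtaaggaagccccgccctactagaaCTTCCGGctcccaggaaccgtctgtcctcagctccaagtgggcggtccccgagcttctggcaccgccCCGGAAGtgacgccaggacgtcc

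RefSeq windows were found for 9 of the 10 genes, all but Clk1. The Tra2b window held GAANNTTC 207 to 200 bases before the start, a motif present in 4.8% of 10664 windows of the same length at tested genes. The Srsf2 window held TGACNNNGC 180 to 172 bases before the start (11.6% of windows), CCAAT 82 to 78 bases before it and TATAAA 29 to 24 bases before it. CCAAT was found in 3 of the 9 windows, those of Srsf2, Srsf3 and Tra2a, against 36.9% of all windows. TATAAA was found in Srsf2 and Srsf3, against 6.0% of all windows. CCGGAAG was found in Srsf5, once on each strand, and in Srsf7, against 14.7% of all windows. TGACGTCA was found in Tra2a and Clk4, against 2.7% of all windows. TGATGNAA was in none of the 9 (1.8% of all windows), and GGGCGG, a GC box that was searched but not capitalised, was in 8 of the 9 (59.3%). Srsf2 and Srsf3 had the highest GC content, 69.6% each, and Srsf5 the lowest at 56.8%, where the median window held 60.0%. These matches describe the letters in the windows, and no factor's binding was measured.

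Between experimental and control cells, Tra2b, Srsf7, Srsf2, Srsf1, Tra2a and Clk1 mRNA rose in experimental cells, by ratios of mean FPKM between 1.14 and 1.44, while Srsf5 and Srsf6 mRNA fell to 0.653 and 0.882 times the control level. Srsf3 and Clk4 did not pass the test. By limma with Benjamini-Hochberg adjustment over all 11974 entries, 8 of the 10 genes were called, 6 higher and 2 lower, where 74.0% of all entries were called, 23.5% higher and 50.5% lower. The share of the 10 genes called was thus near that of all entries. Their calls were mostly upward, where most calls among all entries were downward. Because the 10 genes and the lists below were chosen with earlier results known, this contrast is a description only, in every comparison. Changes were small, and none of the 10 reached a log2 difference of 1 in size. Of all entries, 11.02% were called with a difference of at least that size. The median absolute log2 difference was 0.26 for the 10 genes and 0.42 for all entries.

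**Figure D1:**
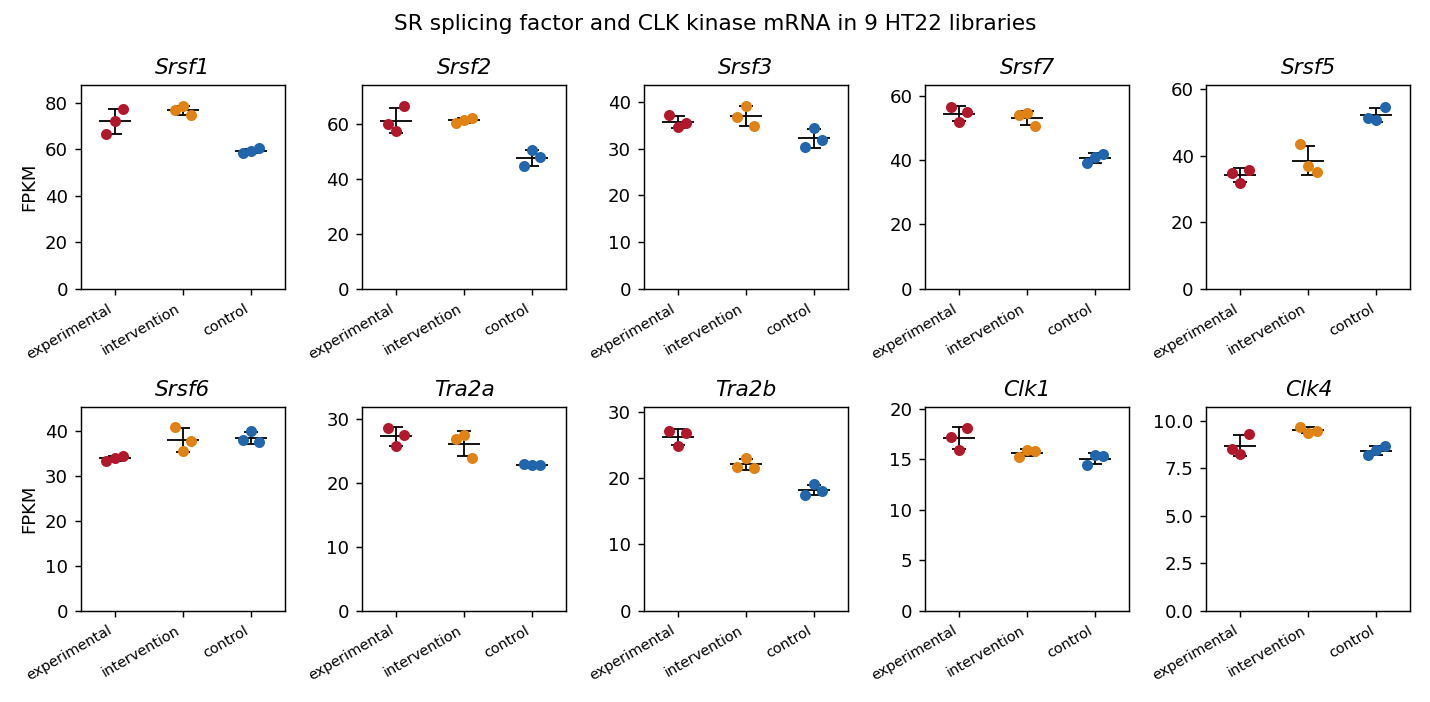
FPKM of the 10 genes in each library, with the group on the horizontal axis and FPKM from 0 on the vertical axis. Points are libraries, horizontal lines are group means and bars are SD (n = 3). Tra2b lies at 24.81 to 27.09 FPKM in the experimental libraries, 21.53 to 23.1 in the intervention libraries and 17.53 to 19.11 in the controls, and Srsf5 lies lower in all 6 experimental and intervention libraries than in any control library.

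Tra2b encodes transformer 2 beta, an SR-like protein that binds GAA-rich exonic enhancers. It was measured at 27.09, 24.81 and 26.86 FPKM in the experimental libraries, against 17.53, 19.11 and 18.02 FPKM in the control libraries. Every experimental library lay above every control library, and Tra2b showed the largest increase of the 10 genes, with a log2 difference of 0.50 (SE 0.055, 95% interval 0.38 to 0.63, adjusted p = 1.544e-05). Its paralog Tra2a was measured at 28.59, 25.69 and 27.5 FPKM in experimental libraries, against 22.9, 22.87 and 22.82 FPKM in control libraries. The groups did not overlap, and Tra2a rose by a log2 difference of 0.24 (SE 0.061, adjusted p = 0.004683). The SD of Tra2a was 1.46 FPKM over the experimental libraries and 0.0404 FPKM over the controls, which were nearly equal.

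Srsf7, an SR protein with a zinc knuckle beside its RNA recognition motif, had 56.34, 51.72 and 54.82 FPKM in experimental libraries, against 38.96, 41.02 and 41.93 FPKM in control libraries. The groups were separated by nearly 10 FPKM, and the log2 difference was 0.41 (SE 0.053, adjusted p = 5.169e-05). Srsf2, also known as SC35 and a component of nuclear speckles, had 59.91, 57.24 and 66.26 FPKM in experimental libraries, against 44.53, 50.42 and 47.8 FPKM in control libraries. The groups did not overlap, and Srsf2 rose by a log2 difference of 0.35 (SE 0.063, adjusted p = 0.0005101). Srsf1, also known as ASF/SF2 and the most abundant of the 10 mRNAs, had 66.64, 71.94 and 77.14 FPKM in experimental libraries, against 58.44, 59.06 and 60.33 FPKM in control libraries. It rose by a log2 difference of 0.27 (SE 0.055, adjusted p = 0.001207), with every experimental library above every control library. The experimental libraries spread more widely than the controls, with SDs of 5.25 and 0.963 FPKM. Srsf3, the smallest SR protein, had 37.2, 34.6 and 35.45 FPKM in experimental libraries, against 30.4, 34.38 and 31.94 FPKM in control libraries. The lowest experimental library was just above the highest control library, and the log2 difference of 0.15 (95% interval 0.01 to 0.28) did not pass the test (adjusted p = 0.0511). It passed without control replicate 2, at a log2 difference of 0.19 (adjusted p = 0.01826), and just passed without intervention replicate 2 (0.0434) or 3 (0.04804) and with a filter at a mean of 5 FPKM (0.04945). Srsf3 was also called higher under median-ratio scaling (0.39, adjusted p = 0.0004203) and quantile normalization (0.19, adjusted p = 0.01868).

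Srsf5 and Srsf6 moved the other way. Srsf5, also known as SRp40, had 34.81, 31.82 and 35.83 FPKM in experimental libraries, against 51.41, 50.86 and 54.6 FPKM in control libraries. No experimental library came within 15 FPKM of a control library, and the log2 difference of -0.60 (SE 0.079, 95% interval -0.78 to -0.43, adjusted p = 5.805e-05) was the largest of the 10 in size. Srsf6, also known as SRp55, had 33.32, 33.93 and 34.4 FPKM in experimental libraries, against 37.99, 39.87 and 37.41 FPKM in control libraries. The groups did not overlap, and the log2 difference was -0.18 (SE 0.055, adjusted p = 0.01473). That fall was about the size of the median over all entries, -0.21, and under median-ratio scaling, which centres the libraries on a typical gene, Srsf6 turned to 0.06 and was not called (adjusted p = 0.2584).

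Of the 2 kinases, Clk1 was called and Clk4 was not. Clk1 had 17.22, 15.95 and 18.13 FPKM in experimental libraries, against 14.42, 15.44 and 15.33 FPKM in control libraries. The groups did not overlap, and the log2 difference was 0.17 (SE 0.056, adjusted p = 0.01759). The call was lost without experimental replicate 1 (adjusted p = 0.051), experimental replicate 3 (0.07903) or control replicate 1 (0.07035), and when values were rescaled to TPM (0.09941). Clk4 had 8.52, 8.27 and 9.29 FPKM in experimental libraries, against 8.18, 8.47 and 8.65 FPKM in control libraries. The groups overlapped, and the log2 difference of 0.04 had a 95% interval of -0.08 to 0.16 (adjusted p = 0.5385). Clk4 was called higher under median-ratio scaling (0.26, adjusted p = 0.002097) and quantile normalization (0.26, adjusted p = 0.002454).

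The scale of the libraries bears on these directions, since the median log2 difference was 0.21 over the 10 genes and -0.21 over all entries. Median-ratio scaling moved the calls over all entries to 36.2% higher and 36.7% lower. On that scale 8 of the 10 genes were higher and 1, Srsf5, was lower, with a median of 0.44. With FPKM as deposited, Srsf5 was the only one of the 10 whose log2 difference lay below the median of all entries (by 0.39), and Tra2b lay farthest above it (by 0.71).

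**Figure D2:**
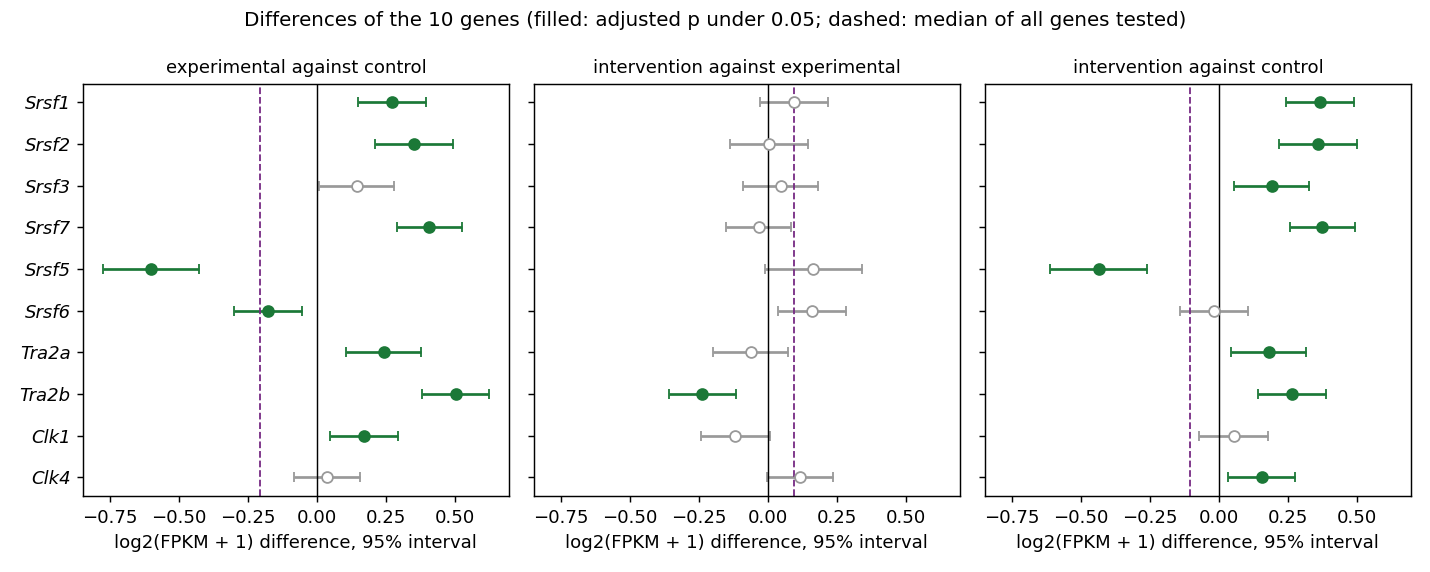
Differences in log2(FPKM + 1) of the 10 genes in the 3 comparisons, first group minus second, with 95% intervals on the horizontal axis and genes down the page. Filled points have an adjusted p under 0.05 by limma, and the dashed line is the median of all 11974 entries, at -0.21, 0.10 and -0.10. Tra2b is the only filled point in the middle panel, at -0.24.

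Between intervention and experimental cells, Tra2b mRNA fell in the intervention group, to 0.842 times the experimental level, and no other of the 10 genes passed the test. The intervention libraries held 21.7, 23.1 and 21.53 FPKM of Tra2b, against 27.09, 24.81 and 26.86 FPKM in the experimental libraries. All 3 intervention libraries lay below all 3 experimental libraries, with a log2 difference of -0.24 (SE 0.055, 95% interval -0.36 to -0.12, adjusted p = 0.02189). The count was 1 of 10 called, 0 higher and 1 lower, where 19.5% of all entries were called, 15.9% higher and 3.60% lower. At an unadjusted p under 0.05 there were 2 of the 10, Tra2b and Srsf6, where 4550 of 11974 entries were under it. The call of Tra2b was lost without experimental replicate 1 (adjusted p = 0.08317), experimental replicate 3 (0.0855), intervention replicate 1 (0.08117) or intervention replicate 3 (0.063), at log2 differences between -0.23 and -0.22. Among all entries 2337 were called, and 1, 4, 6 and 950 were called without these same libraries, in that order.

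Among the genes that did not pass, Clk1, Clk4 and Srsf6 had groups that did not overlap. How many of all entries had groups without overlap was not counted, here or in the other comparisons. Such separation is therefore given as a description only. Clk1 had 15.28, 15.89 and 15.84 FPKM in intervention libraries, against 17.22, 15.95 and 18.13 FPKM in experimental libraries. The intervention libraries were all lower, by a log2 difference of -0.12 (95% interval -0.24 to 0.01, adjusted p = 0.1523), and Clk1 was called lower under median-ratio scaling (-0.23, adjusted p = 0.04465). Clk4 had 9.69, 9.36 and 9.46 FPKM in intervention libraries, against 8.52, 8.27 and 9.29 FPKM in experimental libraries. All 3 intervention libraries were higher, with a log2 difference of 0.12 (95% interval -0.003 to 0.24, adjusted p = 0.1405), which was 0.011 under median-ratio scaling (adjusted p = 0.9179). Srsf6 had 40.86, 35.6 and 37.62 FPKM in intervention libraries, against 33.32, 33.93 and 34.4 FPKM in experimental libraries. The intervention libraries lay above the experimental ones, by 0.16 on the log2 scale (SE 0.055, adjusted p = 0.06593). Without intervention replicate 2 the difference was 0.20 and passed (adjusted p = 0.03268), and under median-ratio scaling it was 0.045 (adjusted p = 0.5567).

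The other 6 genes, Srsf1, Srsf7, Srsf2, Tra2a, Srsf3 and Srsf5, had overlapping groups and were not called. Srsf1 averaged 76.7 ± 1.90 FPKM in intervention and 71.9 ± 5.25 FPKM in experimental libraries (SD, n = 3 each), a log2 difference of 0.09 (95% interval -0.03 to 0.22, adjusted p = 0.2379). Srsf7 averaged 53.1 ± 2.25 FPKM in intervention and 54.3 ± 2.35 FPKM in experimental libraries, a log2 difference of -0.03 (-0.15 to 0.08, adjusted p = 0.6803). For Srsf2 the means were 61.2 ± 0.910 and 61.1 ± 4.63 FPKM in intervention and experimental libraries, and the interval of the log2 difference was -0.14 to 0.15 (adjusted p = 0.9626). For Srsf7 and Srsf2, the lower bounds are smaller in size than their increases over controls, which rest on the same experimental libraries. Tra2a averaged 26.1 ± 1.96 FPKM in intervention and 27.3 ± 1.46 FPKM in experimental libraries, a log2 difference of -0.06 (-0.20 to 0.08, adjusted p = 0.4849). Srsf3 averaged 37.0 ± 2.18 FPKM in intervention and 35.75 ± 1.33 FPKM in experimental libraries (0.05, -0.09 to 0.18, adjusted p = 0.5983). Srsf5 had 43.54, 36.99 and 35.08 FPKM in intervention libraries, against 34.81, 31.82 and 35.83 FPKM in experimental libraries. Intervention replicate 1 stood above the rest, and the log2 difference of 0.17 (-0.01 to 0.34) did not pass (adjusted p = 0.1529). It was 0.076 without that library (adjusted p = 0.4708) and 0.051 under median-ratio scaling (adjusted p = 0.6949).

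Intervention cells were also set against the control libraries, which the comparison of experimental cells shares. Srsf7, Srsf1, Srsf2, Tra2b, Srsf3, Tra2a and Clk4 mRNA rose, by ratios of 1.13 to 1.31, and Srsf5 mRNA fell to 0.737 times the control level. That is 8 of 10 called, 7 higher and 1 lower, where 65.3% of all entries were called, 24.1% higher and 41.1% lower. Under median-ratio scaling 32.3% of entries were higher and 32.8% lower, and 8 of the 10 genes were higher and 1 lower. The median log2 difference was 0.19 for the 10 genes and -0.10 for all entries.

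Srsf7 had 54.1, 54.6 and 50.47 FPKM in intervention libraries, against 38.96, 41.02 and 41.93 FPKM in controls, a log2 difference of 0.38 (SE 0.053, adjusted p = 0.0001363). Srsf1 had 76.79, 78.54 and 74.74 FPKM in intervention libraries, against 58.44, 59.06 and 60.33 FPKM in controls, a log2 difference of 0.37 (SE 0.055, adjusted p = 0.0002277). Srsf2 had 60.34, 61.21 and 62.16 FPKM in intervention libraries, against 44.53, 50.42 and 47.8 FPKM in controls, a log2 difference of 0.36 (SE 0.063, adjusted p = 0.0006232). In none of these 3 did the groups overlap. Tra2b had 21.7, 23.1 and 21.53 FPKM in intervention libraries, against 17.53, 19.11 and 18.02 FPKM in controls. Each intervention library was higher than each control library, with a log2 difference of 0.27 (SE 0.055, adjusted p = 0.001664). Srsf5 fell, to 43.54, 36.99 and 35.08 FPKM in intervention libraries, against 51.41, 50.86 and 54.6 FPKM in controls. The groups did not overlap, and the log2 difference was -0.44 (SE 0.079, adjusted p = 0.0007314). Srsf6 averaged 38.0 ± 2.65 FPKM in intervention and 38.4 ± 1.29 FPKM in control libraries, and its log2 difference of -0.02 had an interval of -0.14 to 0.11 (adjusted p = 0.811). Clk1 averaged 15.7 ± 0.339 FPKM in intervention and 15.1 ± 0.560 FPKM in control libraries, with an interval of -0.07 to 0.18 (adjusted p = 0.4139), and was called higher under median-ratio scaling (0.17, adjusted p = 0.03387).

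The 3 smallest increases depended on single libraries. Srsf3 had 36.88, 39.22 and 34.87 FPKM in intervention libraries, against 30.4, 34.38 and 31.94 FPKM in controls, a log2 difference of 0.19 (adjusted p = 0.0178). The groups did not overlap, and the call was lost without intervention replicate 2 (adjusted p = 0.0688) or control replicate 1 (0.07449). Tra2a had 26.92, 27.51 and 23.86 FPKM in intervention libraries, against 22.9, 22.87 and 22.82 FPKM in controls, a log2 difference of 0.18 (adjusted p = 0.02482). Intervention replicate 3 stood about 1 FPKM above the controls, and the call was lost without intervention replicate 1 (adjusted p = 0.07535), intervention replicate 2 (0.09056), control replicate 1 (0.05814) or control replicate 3 (0.05498). Clk4 had 9.69, 9.36 and 9.46 FPKM in intervention libraries, against 8.18, 8.47 and 8.65 FPKM in controls, a log2 difference of 0.16 (adjusted p = 0.02716). Every intervention library was higher, and the call was lost without intervention replicate 1 (adjusted p = 0.07204), intervention replicate 3 (0.05886) or control replicate 1 (0.08945). All 3 calls were also lost on the TPM scale, with adjusted p of 0.0916 for Srsf3, 0.1518 for Tra2a and 0.2065 for Clk4. The call of Tra2a was lost as well with no filter on low values.

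Ratios between related genes within a library do not change when all values of the library are multiplied by a common factor, though quantile normalization can change them. The pairs were chosen after the values were seen, so they are given as a description, with no test. Tra2b stood at 0.948 to 0.977 times the Tra2a level in experimental libraries, 0.806 to 0.902 times in intervention libraries and 0.766 to 0.836 times in control libraries. The experimental libraries stood apart from the other 2 groups, which overlapped. Clk1 stood at 1.93 to 2.02 times the Clk4 level in experimental libraries, 1.58 to 1.70 times in intervention libraries and 1.76 to 1.82 times in control libraries, so that the 3 groups did not overlap and the intervention libraries were lowest. Srsf1 stood at 1.91 to 2.26 times the Srsf5 level in experimental libraries, 1.76 to 2.13 times in intervention libraries and 1.105 to 1.16 times in control libraries. The experimental and intervention libraries overlapped with each other and not with the controls. Srsf7 over Srsf3 was 1.495 to 1.55, 1.39 to 1.47 and 1.19 to 1.31 in experimental, intervention and control libraries, 3 ranges that did not overlap. Srsf5 over Srsf6 was 0.938 to 1.045 and 0.932 to 1.066 in experimental and intervention libraries and 1.276 to 1.46 in control libraries, with the controls apart.

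**Figure D3:**
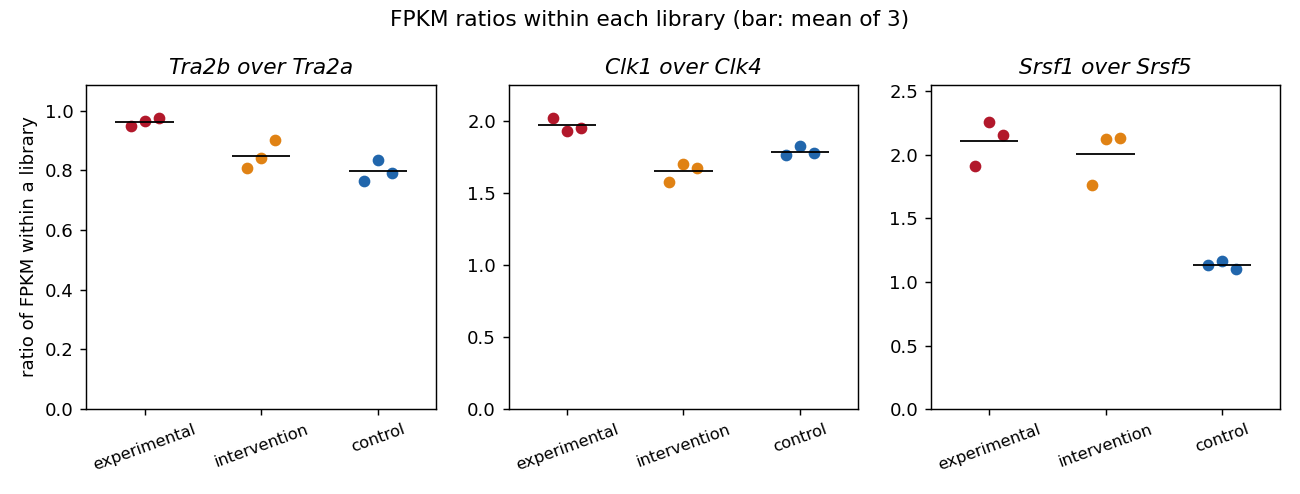
Ratios of FPKM between 2 genes within each library, from 0 on the vertical axis, for Tra2b over Tra2a, Clk1 over Clk4 and Srsf1 over Srsf5. Points are libraries and bars are means of 3. Srsf1 is at least 1.76 times Srsf5 in every experimental and intervention library and 1.105 to 1.16 times Srsf5 in controls, while Clk1 over Clk4 separates all 3 groups.

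The order of the levels shifted around Srsf5. In experimental libraries the order of mean FPKM was Srsf1, Srsf2, Srsf7, Srsf3, Srsf5, Srsf6, Tra2a, Tra2b, Clk1 and Clk4, where the ranges of Srsf3, Srsf5 and Srsf6 overlapped from one to the next, as did those of Tra2a and Tra2b. In intervention libraries Srsf5, Srsf6 and Srsf3 again had overlapping ranges, behind Srsf1, Srsf2 and Srsf7, and Tra2a stood above Tra2b with no overlap. In control libraries the order was Srsf1, Srsf5, Srsf2, Srsf7, Srsf6, Srsf3, Tra2a, Tra2b, Clk1 and Clk4, and of these neighbours only the ranges of Srsf7 and Srsf6 overlapped. Srsf5 thus ranked 5 of the 10 by mean in experimental libraries, 4 in intervention libraries and 2 in controls. Srsf1 was above 95.4%, 95.7% and 94.4% of tested entries in the experimental, intervention and control groups, and Clk4, the lowest of the 10, above 59.3%, 59.6% and 52.6%.

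The profile of each gene over the 9 libraries was set beside that of 10342 other tested entries, as the root mean square (RMS) difference of log2(FPKM + 1) after centring. The smallest differences from Tra2b were those of Etv6, an ETS family repressor (RMS 0.036), and Cryab, a small heat shock protein (0.042). Cryab averaged 84.1, 71.8 and 58.3 FPKM in the experimental, intervention and control groups. Nearest to Srsf7 were Xrn2, the nuclear exonuclease that ends transcription by degrading the downstream RNA (0.030), and Katnbl1 (0.030). Nearest to Srsf1 were the transcription factor Rfx3 (0.035) and Zfp740 (0.037), and nearest to Srsf2 were Taf5, a subunit of TFIID (0.051), and Rtf1, a transcription elongation factor (0.051). Anapc15, a subunit of the anaphase-promoting complex (0.041), and Slc33a1, an acetyl-CoA transporter (0.049), were nearest to Srsf5. Srsf6 was nearest to Lamtor3 (0.026) and the nuclear pore protein Nup107 (0.035), and Srsf3 to Pphln1 (0.032) and Wdr36 (0.032). Tra2a was nearest to Homer1 (0.037) and Acer3 (0.041), Clk1 to Usp22 (0.033) and Snap29 (0.037), and Clk4 to Bfar (0.034) and Tagap1 (0.035). Within the 10, the closest pairs were Srsf2 with Srsf7 (0.068), Srsf3 with Tra2a (0.069) and Srsf1 with Srsf2 (0.073). Each difference was wider than that of the nearest outside gene, which was sought among 10342 entries rather than within the 10. A search among more entries tends to find a smaller difference, so this comparison does not show how alike the 10 genes are.

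The annotation of these genes bears on what a gene-level FPKM can show. In GENCODE M21 on mm10, Srsf1 lies at chr11:88047373-88053755 (plus strand), Srsf2 at chr11:116849901-116853094 (minus), Srsf3 at chr17:29032628-29043373 (plus), Srsf5 at chr12:80945504-80950507 (plus), Srsf6 at chr2:162931528-162937121 (plus) and Srsf7 at chr17:80200080-80207307 (minus). Tra2a lies at chr6:49243924-49264033 (minus), Tra2b at chr16:22244549-22266005 (minus), Clk1 at chr1:58410189-58424066 (minus) and Clk4 at chr11:51261730-51281766 (plus). Each of the 10 genes has at least 1 transcript marked for nonsense-mediated decay and at least 1 with a retained intron, as do 24.5% of 10017 tested coding genes. The share with both is 59.1% among 22 hnRNP protein genes and 40.0% among 5 other SR protein genes. Clk1 has 13 annotated transcripts, of which 1 is protein-coding, 2 are marked for decay and 7 retain an intron. Clk4 has 14, of which 4 are protein-coding, 3 are marked for decay and 7 retain an intron. Srsf3 has 1 protein-coding transcript of 10. Some internal exons of decay transcripts overlap no exon of a protein-coding transcript, and transcripts of other types were not checked for them. They lie at chr16:22258986-22259261 in Tra2b (276 bases, minus strand, with a 397-base form at chr16:22258865-22259261), chr6:49252803-49253108 in Tra2a (306 bases, minus strand), chr17:80204622-80205081 in Srsf7 (460 bases, minus strand) and chr17:29039454-29039909 in Srsf3 (456 bases, plus strand). Clk4 has a pair of such exons, at chr11:51268769-51268846 (78 bases) and chr11:51270537-51270595 (59 bases) on the plus strand. The deposited value is 1 number per gene, so productive and unproductive transcripts are counted together in every level above.

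Some values may share reads with other loci because the counting program and its handling of strand are unknown. The coding transcripts of Srsf5 match the processed pseudogene Gm12966 at 98.6% identity over 813 bases. Gm12966 had 3.53, 3.44 and 3.88 FPKM in experimental libraries and 4.4, 4.44 and 5.44 FPKM in intervention libraries, against 13.04, 12.44 and 11.07 FPKM in control libraries. It fell as Srsf5 did and by more, with log2 differences of -1.51 for experimental (adjusted p = 2.383e-07) and -1.20 for intervention (adjusted p = 1.618e-06) against control, so the 2 loci are uncertain as separate genes. Tra2b matches Gm10254 at 98.7% identity over 867 bases, which averaged 3.61 ± 0.229 FPKM in the experimental libraries, 3.62 ± 0.685 in the intervention libraries and 2.98 ± 0.384 in the controls and was not called for experimental against control (adjusted p = 0.1007). Srsf3 matches Gm9761 at 99.6% identity over 492 bases, at 11.9 ± 1.49, 13.7 ± 1.82 and 12.04 ± 1.17 FPKM in the experimental, intervention and control groups (adjusted p = 0.8888 for experimental against control), so its level and its small differences are uncertain. Srsf3 also matches Gm12355 at 98.3% identity over 1298 bases, a symbol without a deposited value. Clk4 shares 59 exon bases with Gm25082 on the same strand, at means of 8.88 and 1.86 FPKM over the 9 libraries. Srsf2 shares 460 exon bases with Mettl23 and 288 with Mfsd11 on the opposite strand. These 2 genes had means of 1.16 and 10.1 FPKM over the 9 libraries, where Srsf2 had 56.7. Mettl23 had 0.737 ± 0.0709 FPKM in experimental and 1.78 ± 0.235 FPKM in control libraries, the direction opposite to that of Srsf2.

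Other genes of splicing and mRNA surveillance were counted from 6 lists with 85 genes, 82 of them tested. For experimental against control 31 were higher, 21 lower and 30 not called, beside 23.5% and 50.5% of all entries, and under median-ratio scaling 53 were higher and 8 lower. Of 12 factors that recognise splice sites with the U1 and U2 particles, 6 were higher and 1 lower, with a median log2 difference of 0.20. Sf1, the branch point binding protein, averaged 78.9 ± 4.67 FPKM in experimental and 48.05 ± 2.61 FPKM in control libraries (adjusted p = 3.396e-06), and U2af1, which binds the 3′ splice site, 38.8 ± 0.802 and 27.9 ± 1.08 FPKM (adjusted p = 6.509e-06). Of 14 nonsense-mediated decay factors, the pathway that removes poison exon transcripts, 9 were higher and 2 lower (median 0.24). They include Smg1, the kinase of UPF1, at 19.1 ± 1.34 FPKM in experimental and 11.3 ± 1.88 FPKM in control libraries (adjusted p = 0.0001405), and the exon junction component Eif4a3 at 67.1 ± 4.17 and 51.55 ± 1.60 FPKM (adjusted p = 9.722e-05).

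Among the other SR protein kinases and import factors, 4 of 8 were higher and 2 lower (median 0.13). Clk2 and Clk3, of the same family as Clk1 and Clk4, moved in opposite directions. Clk2 averaged 8.62 ± 0.498 FPKM in experimental and 14.2 ± 0.657 FPKM in control libraries (log2 difference -0.66, adjusted p = 7.016e-06). Clk3 averaged 8.83 ± 0.460 FPKM in experimental and 6.57 ± 0.245 FPKM in control libraries (adjusted p = 0.0001377), and Srpk1, which phosphorylates SR proteins in the cytoplasm, 14.95 ± 0.291 and 11.8 ± 0.526 FPKM (adjusted p = 0.0001857). Of 4 other SR proteins tested, Srsf11 was higher at 26.1 ± 1.49 FPKM in experimental and 21.9 ± 0.860 FPKM in control libraries (adjusted p = 0.001778), and Srsf9 was lower at 16.3 ± 1.14 and 24.9 ± 0.880 FPKM (adjusted p = 0.0001613). The SR-related speckle proteins were 6 higher and 7 lower of 22 (median -0.08) as deposited and 13 higher and 2 lower (median 0.16) under median-ratio scaling. Luc7l was higher, at 18.4 ± 0.381 FPKM in experimental and 9.73 ± 0.622 FPKM in control libraries (adjusted p = 6.773e-07). Scaf1 was lower, at 12.4 ± 0.633 and 21.5 ± 2.72 FPKM (adjusted p = 4.058e-05), as was Luc7l2, at 10.6 ± 0.482 and 15.0 ± 1.17 FPKM (adjusted p = 7.52e-05). The hnRNP proteins, which often act against SR proteins at exons, were 5 higher and 8 lower of 22 (median -0.04) as deposited, a balance that turned to 12 higher and 3 lower (median 0.20) under median-ratio scaling. Among them was Hnrnpl, an exon repressor, at 38.7 and 55.4 FPKM (adjusted p = 1.593e-05).

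**Figure D4:**
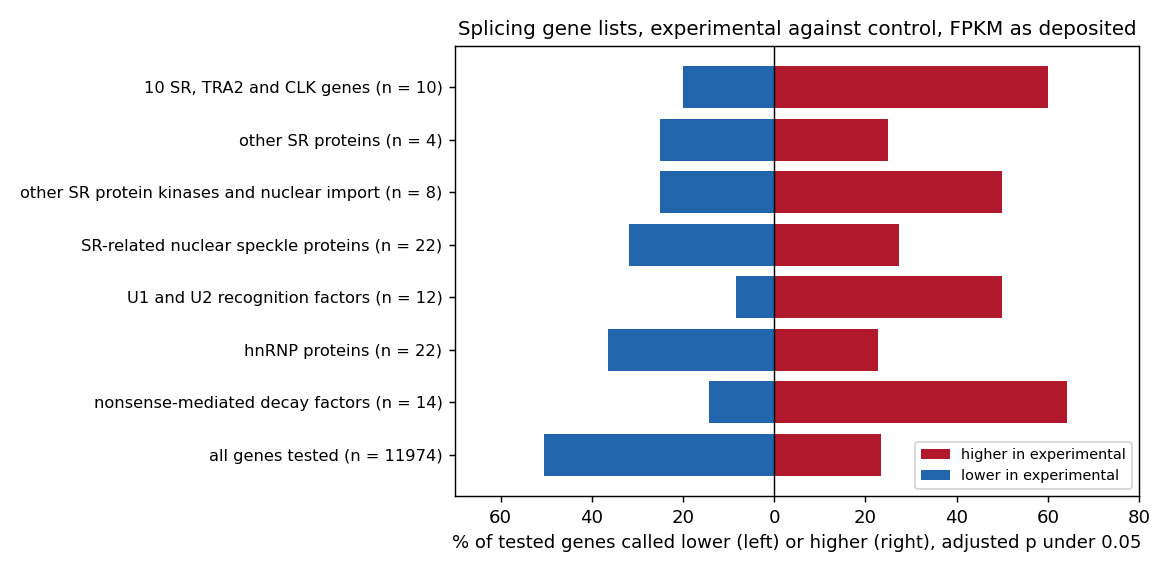
Share of tested genes in each list that limma called lower (left of 0) or higher (right of 0) in experimental against control libraries at an adjusted p under 0.05, with FPKM as deposited. The 10 SR, TRA2 and CLK genes have 6 higher and 2 lower, and all entries have 23.5% higher and 50.5% lower.

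For intervention against experimental, 5 of the 82 tested genes were higher and 2 lower, beside 15.9% and 3.60% of all entries. Under median-ratio scaling 0 of the 82 were higher and 10 lower, beside 4.74% and 7.86% of all entries. Clk2 was higher, at 10.1 ± 0.713 FPKM in intervention and 8.62 ± 0.498 FPKM in experimental libraries (adjusted p = 0.0463). Bclaf1, Smg5, Hnrnpl and Hnrnpr were the others that were higher (adjusted p of 0.02046, 0.03561, 0.02513 and 0.04648). Sf1 was lower, at 65.4 ± 3.11 FPKM in intervention and 78.9 ± 4.67 FPKM in experimental libraries (log2 difference -0.27, adjusted p = 0.02191), as was Hnrnpc (adjusted p = 0.04963). For intervention against control 31 of the 82 were higher and 20 lower, beside 24.1% and 41.1% of all entries, and under median-ratio scaling 41 were higher and 8 lower. Luc7l, U2af1 and Clk3 were again among those that were higher, with Clk2 and Srsf9 again lower.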

How the data were processed

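RNA of 9 HT22 libraries was sequenced on an Illumina NovaSeq, per the labels and the series' design text. The authors deposited FPKM, 1 value per entry and library with 2 decimals, and mm10 is named per the submitters' processing notes. Not given in the sources used here are aligner, counter, annotation and strand handling. Depth is unknown: of 13518 values above 0 of single-exon genes under 400 bases, 11.2% were smaller than 1 read would give at a depth of 200 M reads, so whole reads were not recovered and count models were not used. Precision rests on the spread between replicates.

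Values were transformed to log2(FPKM + 1), which understates the change of low genes, and entries with at least 1 FPKM in at least 3 of 9 libraries were kept. The test was limma 3.58.1 under R 4.3.3, with all 9 libraries in 1 fit, no covariate and a mean-variance trend, and Benjamini-Hochberg adjustment over 11974 entries, 2-sided, called under 0.05. Where a symbol occurred more than once (61 further entries), the entry with the highest mean kept it. Scripts were tested on simulated data.

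The 10 genes and the lists (6 splicing lists, 4 cell type marker lists and the nuclear RNAs) were chosen with earlier results of these data known. All 10 were named, along with up to 3 genes of each splicing list per comparison with the smallest adjusted p and the 2 entries nearest in profile to each of the 10, predicted genes left out. Called list genes of intervention against experimental beyond these, and the overlapping and near-identical loci, were picked with values in view. Annotation came from GENCODE M21, near-identical transcripts from blastn (at least 95% identity over at least 300 bases), and promoters from RefSeq. The 18 alternatives comprised a pseudocount of 0.1, no filter, a mean of at least 5 FPKM, median-ratio scaling, quantile normalization, TPM, no trend, only the groups compared, a replicate block, and each library left out.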

Additional observations from a re-analysis of the deposited data

How the results depend on the processing

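Over 18 alternatives, Srsf1, Srsf2, Srsf5, Srsf7 and Tra2b kept their direction and call against control in both the experimental and intervention groups, as did Tra2a for experimental against control. Leaving out 1 library gave 7 to 9 called of the 10 genes for experimental against control, 0 to 2 for intervention against experimental and 5 to 8 for intervention against control (5 without control replicate 1), and 8117 to 8819, 1 to 2557 and 6904 to 7772 of all entries. For intervention against experimental, no filter left 0 of the 10 and 358 entries called, median-ratio scaling 2 and 1509, and quantile normalization 1038 entries. A mean of at least 5 FPKM, which tests fewer entries, left 5702 called for experimental and 5129 for intervention against control. TPM left 5 of the 10 for intervention against control, 4 higher and 1 lower, where 2373 of all 11974 entries were higher and 5575 lower. The cause of these shifts was not tested. Reversed signs under median-ratio scaling were those of Srsf6 for experimental (0.064) and intervention (0.109) against control, and of Srsf1 (-0.022), Srsf2 (-0.111) and Srsf3 (-0.068) for intervention against experimental. On the TPM scale they were Clk4 for experimental against control (-0.021), Clk1 for intervention against control (-0.020) and Srsf2 for intervention against experimental (-0.0086), and by quantile normalization Srsf2 (-0.047). With 1 library left out, 4 differences crossed 0: Clk4 for experimental against control (-0.0057 to 0.070), Srsf2 (-0.041 to 0.063) and Srsf7 (-0.067 to 0.0023) for intervention against experimental, and Srsf6 for intervention against control (-0.068 to 0.029). Of these, only Srsf6 for experimental against control had been called. The labels do not say that replicate numbers are a pairing. Same-numbered deviations correlated at -0.182 to 0.110, and 2 of 9 libraries correlated best with their own number. With 3 libraries a group, this check showed no clear pairing and cannot exclude a weak one. With the replicate block the 10 genes kept 8, 1 and 8 calls, and all entries 8732, 1268 and 7577. Unknown depth leaves no counting error for any value.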
